A study of Mus musculus with 8 samples.

Results

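The 3 arrays of hearts labelled PlGF/RGS4 were compared with the 3 control arrays, 6 of the 8 arrays in the series, chosen by their titles alone. The other 2 arrays, of hearts labelled PlGF, are a reference for single genes, and are compared with the labelled PlGF/RGS4 hearts near the end. Each array was hybridised with total RNA from the left ventricle of 1 C57/Bl6 mouse aged 11 weeks. The labelled PlGF/RGS4 mice belong to a TET-OFF line in which the transactivator tTA, driven by the αMHC promoter and so limited to heart muscle cells, turns on PlGF and RGS4 transgenes together. Doxycycline in the diet held the transgenes silent before and after birth, and normal chow from 5 weeks of age released them for 6 weeks. Mice labelled PlGF carry the same driver with a PlGF transgene only. Controls were littermates with a single transgene, either the driver or the responder. Which of them each control carried is not given, so the presence of tTA and the products of the responder transgenes cannot be told apart in any comparison with these controls.

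Placental growth factor (PlGF, gene Pgf) is a ligand of the VEGF family that binds the receptor FLT1 on endothelial cells and drives the growth of vessels. RGS4 is a regulator of G protein signalling: it speeds the return of Gαi and Gαq subunits to their resting state, and so shortens the signal from receptors such as those for angiotensin and endothelin. In heart muscle such signals bear on cell size, on calcium release and on the natriuretic peptides, hormones that ventricles make when they are stretched or enlarged. The comparison therefore asks which vessel, channel, contractile and fuel genes differ when both proteins are to be made for 6 weeks.

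Neither transgene read higher in the arrays labelled PlGF/RGS4 than in the controls. The intensity of Pgf was 211, 349 and 387 in the controls compared with 300.0, 229 and 211 in the labelled PlGF/RGS4 hearts, and reached 4136 and 917 in the PlGF hearts. For Rgs4 the controls read 209.5, 277 and 282, the labelled PlGF/RGS4 hearts 234, 187 and 229 and the PlGF hearts 235 and 195. The groups overlapped for both genes, with log2 changes of -0.32 ± 0.25 (SE) and -0.23 ± 0.14 (SE), and only the PlGF hearts stood above the controls for Pgf. The arrays thus go against their label for both genes, and it was not tested whether the probe sets miss the transgenes of that line or the label does not match the hearts. What every difference below refers to therefore rests on the label alone, and the group is called labelled PlGF/RGS4 throughout.

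The ventricular genes Myh6, Myl2, Myl3, Tnnt2 and Tnni3 read between 11911 and 15582 on all 6 arrays, while the atrial genes Myl7, Sln and Bmp10 stayed between 19.2 and 84.4 and Myl4 between 286 and 435. The atrial gene Nppa was far brighter, at 1661 to 4096, and like Bmp10 was lower in the labelled PlGF/RGS4 hearts without overlap. The summed intensity of 13 atrial genes was 9798 to 11467 in the controls and 8689 to 9546 in the labelled PlGF/RGS4 hearts, a gap that includes Nppa itself. In that list 2 genes were lower (15.4% against 5.85% of all genes) and 1 higher (7.69% against 6.96%) without overlap. Xist, the RNA of the silent X chromosome, was low on replicate 2 of both groups, at 50.8 and 36.1, and between 2581 and 2958 on the other 4, so each group held 1 array that reads as male. The level of one gene was often repeated exactly between arrays: of 4458 genes with a mean intensity of 500 or more, 918 (20.6%) had such a repeat among the 6 arrays. Notch1, for instance, read 788 in all 3 controls. Such repeats add nothing to the measured spread, so p-values of those genes can be too small. They occurred in 9163 of all 19933 genes.

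The differences were small for nearly all genes. Over 19933 genes, each represented by its brightest probe set, the log2 change (labelled PlGF/RGS4 minus control) had a median of 0.0029, with -0.16 at the 5th percentile and 0.16 at the 95th. Within 1.2-fold lay 96.6% of genes, and 25 genes were at least 1.5-fold higher and 43 at least 1.5-fold lower. Those at least 2-fold higher were 3 genes, Slc17a7, Casq1 and Lcn2, and 8 genes were at least 2-fold lower, of which Kcnip2, Kcne1, Mylk4, Tmem82 and Retnla were non-overlapping. The 1015 olfactory receptor genes, which heart muscle is not known to use and which therefore show the spread of a dim background, had a median of 0.00012 and an SD of 0.076 against 0.117 over all genes.

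The spread of the change widened with level, from an SD of 0.084 in the third of genes with the lowest levels to 0.138 in the third with the highest. Among arrays of the same group, 1 array minus the mean of the other 2 gave an SD of 0.122 to 0.171 over all genes; this is not on the footing of a difference between means of 3 arrays, which varies less by construction. The widest was replicate 2 of the labelled PlGF/RGS4 hearts, where 167 genes stood 1.5-fold or more from that mean.

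**Figure D1:**
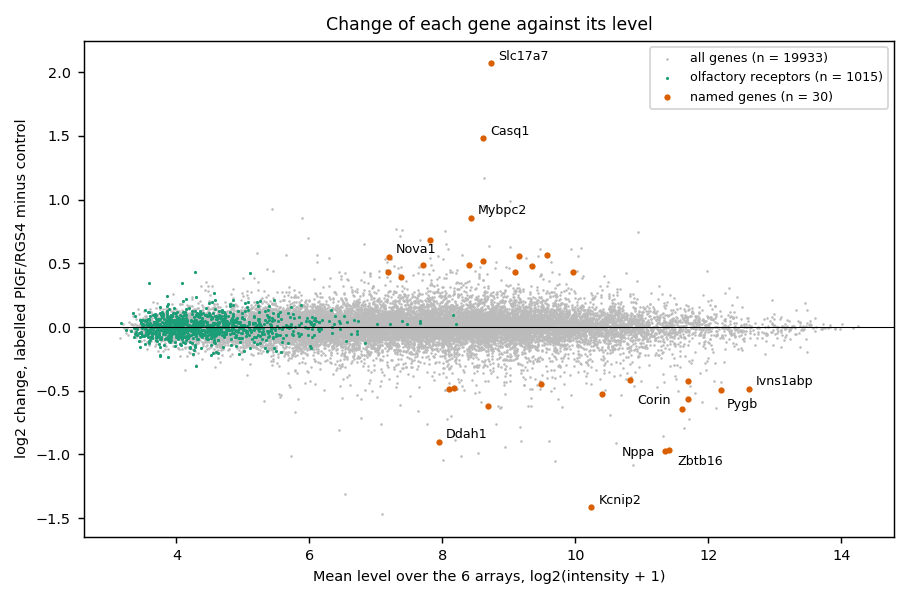
Each point is 1 gene, placed by its mean level over the 6 arrays, log2(intensity + 1), and its log2 change, labelled PlGF/RGS4 minus control; green points are the 1015 olfactory receptors and orange points the 30 leading genes. Most of the 19933 genes lie close to 0, and the orange points stand away from them between -1.41 for Kcnip2 and 2.07 for Slc17a7.

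No gene passed an adjusted p of 0.05 in either direction (limma with Benjamini-Hochberg adjustment; percent called 0 both ways). The lowest adjusted p was 0.0542, shared by 6 genes, Slc17a7, Casq1, Nova1, Ivns1abp, Pygb and Corin. At an unadjusted p under 0.05, 952 genes were higher (4.78%) and 822 lower (4.12%), 8.9% in all. All 3 labelled PlGF/RGS4 arrays stood above all 3 controls for 1387 genes (6.96%) and below them for 1167 genes (5.85%), 12.8% in all. These are the background shares for the counts below. For any single gene the exact permutation test over the 20 arrangements of 3 arrays against 3 cannot give a two-sided p below 0.1, the value of every gene whose arrays do not overlap. Under 5 other settings of the fit between 3 and 11 genes passed. In what follows, differences are therefore given as values, and "non-overlapping" means that the 2 groups of 3 arrays do not cross. The leading genes were drawn from the non-overlapping ones, so their lack of overlap is set by that choice.

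Among the genes that read higher, Slc17a7 had the widest difference of all 19933 genes. It encodes VGLUT1, the transporter that loads glutamate into vesicles of nerve endings. Its intensity was 259, 185 and 183 in the controls against 754, 977 and 894 in the labelled PlGF/RGS4 hearts, with 1018 and 909.8 in the PlGF hearts. The lowest labelled PlGF/RGS4 array was far above the highest control, a log2 change of 2.07 ± 0.16 (SE) with a limma adjusted p of 0.0542. Casq1 encodes the calsequestrin of skeletal muscle, a calcium store of the sarcoplasmic reticulum. It read 229.5, 261 and 214 in the controls against 667, 558 and 752 in the labelled PlGF/RGS4 hearts, 2.79-fold higher without overlap (log2 change 1.48 ± 0.12 (SE), limma adjusted p = 0.0542). The PlGF hearts read 675 and 604, within the range of the labelled PlGF/RGS4 hearts. Nova1, a splicing factor best known from neurons, read 116, 119 and 125 against 182, 172 and 174, a narrower difference with tight groups (0.55 ± 0.044 (SE), limma adjusted p = 0.0542).

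The other 12 leading genes on this side had log2 changes from 0.40 for Sat2 to 0.86 for Mybpc2 and adjusted p from 0.103 for Inpp5j to 0.279 for Ube2ql1. Mybpc2 encodes myosin binding protein C of fast skeletal muscle and read 265, 289 and 215 in the controls against 437, 397 and 566 in the labelled PlGF/RGS4 hearts. Cacnb1, the β1 subunit of voltage-gated calcium channels, read 129, 122 and 122 against 164, 158 and 181. For Zfp346, which encodes a zinc finger protein that binds double-stranded RNA, the values were 559, 681 and 635 against 896, 929.5 and 949. In each of these 3 genes every labelled PlGF/RGS4 array lay above every control. Cers4, a ceramide synthase, read 916, 771 and 898 against 1167, 1143 and 1159, and Inpp5j, an inositol polyphosphate 5-phosphatase, 561, 543 and 544 against 736, 818 and 741. Pla2g4e, Dpy19l1, Sat2, Extl1, Osbpl6, Reep6 and Ube2ql1 made up the rest.

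Casq1 and Mybpc2 are genes of skeletal muscle, and 5 defining genes of that tissue did not read higher. Myh1 was at 55.0, 54.4 and 51.3 in the controls against 47.9, 46.2 and 45.1 in the labelled PlGF/RGS4 hearts, and Myh4 at 46.4, 45.8 and 45.2 against 45.2, 45.2 and 44.4. Mylpf, Tnnc2 and Tnni2 gave log2 changes of -0.0083, -0.036 and -0.12. Of the 16 measured genes of the skeletal muscle list 2 were non-overlapping and higher, Casq1 and Mybpc2, and 4 lower, Myh1, Ckm, Tnni2 and Tnnc2. These were 12.5% and 25%, against 6.96% and 5.85% of all genes.

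Among the genes that read lower, Ivns1abp, whose product is a kelch protein that binds actin, read 7282, 7567 and 7249.6 in the controls against 5246, 5184 and 5371 in the labelled PlGF/RGS4 hearts. Both groups were tight and apart (log2 change -0.48 ± 0.036 (SE), limma adjusted p = 0.0542). Rbfox1, a splicing regulator of heart, muscle and brain, read 812, 878 and 825 against 623, 599 and 617 (-0.45 ± 0.043 (SE), limma adjusted p = 0.0807). Pdgfd, a growth factor for pericytes and smooth muscle, read 489, 519.9 and 518 against 338, 346 and 307 (-0.62 ± 0.057 (SE), limma adjusted p = 0.0689). None of these 3 genes had a labelled PlGF/RGS4 array within the range of the controls.

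Ddah1 degrades asymmetric dimethylarginine, a natural inhibitor of nitric oxide synthases. It read 328, 307 and 379.7 in the controls, 189.9, 166 and 184 in the labelled PlGF/RGS4 hearts and 316 and 167 in the PlGF hearts (log2 change -0.90 ± 0.091 (SE), limma adjusted p = 0.0945). The 2 PlGF arrays fell on either side, 1 among the controls and 1 with the labelled PlGF/RGS4 hearts. Ehd4, a protein of membrane recycling, showed the same layout, 3918, 3669 and 3944 against 2909, 2908 and 2777, with 3898 and 2864 in the PlGF hearts. Pik3r1, the p85α subunit of phosphoinositide 3-kinase, read 3678, 3908 and 4069.5 against 2584, 2712 and 2204, and Ide, the protease that degrades insulin, 1982, 2155 and 2141 against 1504, 1520.2 and 1672. The limma adjusted p was 0.214 for Pik3r1 and 0.232 for Ide, and both genes were non-overlapping. Raph1 and Zfp961 gave log2 changes of -0.53 and -0.48, and Corin, Pygb, Nppa, Zbtb16, Kcnip2 and Slc2a12 are described with their groups.

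**Figure D2:**
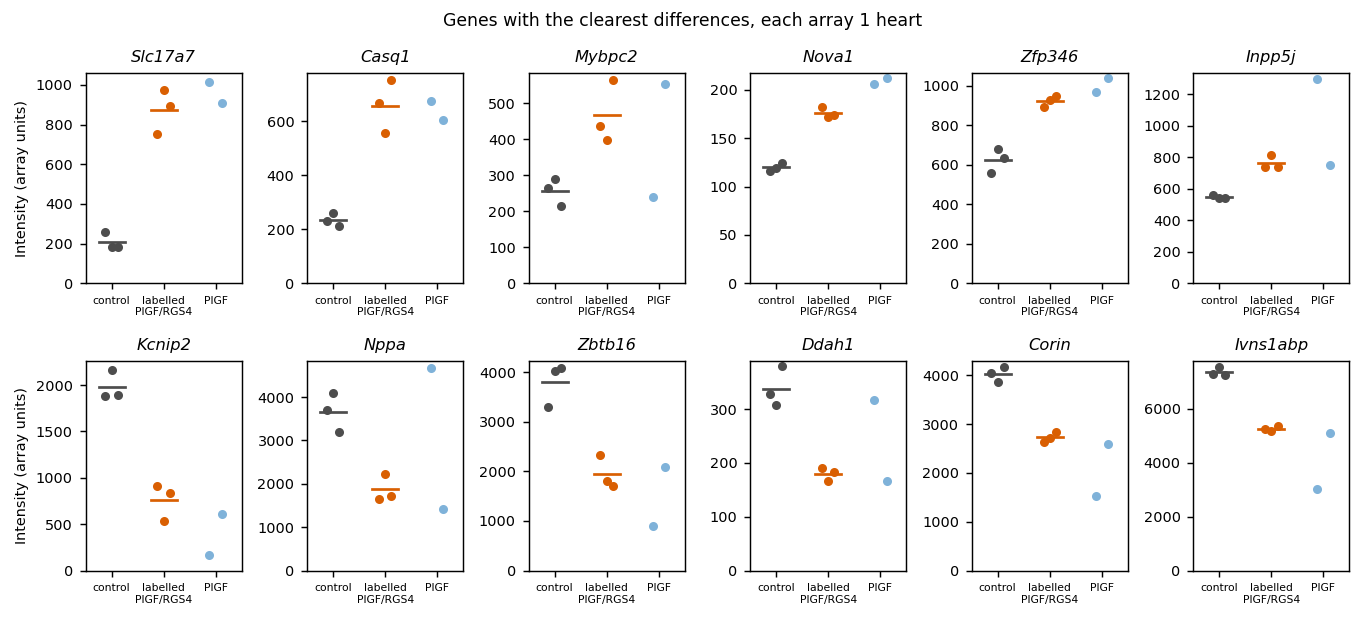
Intensity in array units of 12 leading genes, each point 1 heart; bars are group means of the 3 control and the 3 labelled PlGF/RGS4 arrays, and the 2 PlGF arrays carry no bar. In all 12 panels the labelled PlGF/RGS4 points and the control points do not cross, which was a condition for choosing these genes.

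The genes of the atrial natriuretic peptide and of the protease that activates it read lower together. Nppa, which encodes the peptide, was at 3693, 4096 and 3185 in the controls against 1661, 2224 and 1724 in the labelled PlGF/RGS4 hearts, 1.96-fold lower (log2 change -0.97 ± 0.14 (SE), limma adjusted p = 0.232). Corin, the membrane protease that cuts the precursor, read 4059.5, 3873 and 4173 against 2639.5, 2711 and 2844 (-0.56 ± 0.047 (SE), limma adjusted p = 0.0542). Nppb, the gene of the brain natriuretic peptide, read 2569, 1684 and 1516 against 994, 1049 and 1506. The groups did not overlap for any of the 3 genes, though for Nppb the highest labelled PlGF/RGS4 array lay just under the lowest control and the adjusted p was 0.481. The PlGF hearts did not share 1 level: they read 4682 and 1424 for Nppa and 7711 and 2227 for Nppb.

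Downstream of these peptides, Prkg1, the kinase that cyclic GMP activates, read 272, 287 and 297 in the controls against 352, 343 and 394 in the labelled PlGF/RGS4 hearts. Pde3a, a phosphodiesterase that cGMP inhibits, read 1084, 1081 and 1234 against 871, 963 and 987. Both genes were non-overlapping, Prkg1 higher by 0.35 ± 0.065 (SE) and Pde3a at -0.27 ± 0.074 (SE) on the log2 scale. The receptors Npr1 and Npr3 overlapped between groups, at -0.12 and -0.14, while Npr2 was non-overlapping at 0.088. Nos3, the nitric oxide synthase of endothelium, read 451, 472 and 519.7 against 429, 379 and 472 with overlap. Of the 17 measured genes of nitric oxide and cGMP signalling, 2 were non-overlapping and higher (11.8% against 6.96% of all genes) and 4 lower (23.5% against 5.85%). Nppa is among those 4, and it also counts in the atrial list and in that of the fetal and hypertrophic response. The median change of the 17 genes was -0.074.

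Among potassium channel genes a few members read much lower while the list as a whole had a median near 0. Kcnip2 encodes KChIP2, the subunit that the transient outward current of the ventricle needs. It read 1881, 2165 and 1889.6 in the controls against 915, 529 and 837 in the labelled PlGF/RGS4 hearts, 2.67-fold lower, and 166 and 608 in the PlGF hearts (log2 change -1.41 ± 0.21 (SE), limma adjusted p = 0.232). Every array of both transgenic groups lay below every control array. Kcnd3, a pore subunit of the same current, read the other way, 331, 303 and 250.5 against 363, 342 and 389 (0.31 ± 0.11 (SE)). Kcne1, a subunit of the slow delayed rectifier, read 98.5, 113 and 274 against 66.0, 44.2 and 66.0. Its log2 change of -1.31 ± 0.40 (SE) was -0.86 without control replicate 3, the highest of the 6 arrays.

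Kcnk6, a two-pore leak channel, read 316, 315 and 335 against 262, 274 and 275, and Kcna7 121, 120.3 and 126 against 109, 111 and 108. Over the 38 measured potassium channel genes, 1 was non-overlapping and higher, 4 non-overlapping and lower, and the median change was 0.0071, against 0.0029 over all genes. Of the 21 sodium, chloride and pacemaker channel genes, the chloride transporter Clcn3 (0.18) and the cation channel Trpc1 (0.21) were non-overlapping and higher. Atp1b1, a subunit of the sodium pump, was non-overlapping and lower at -0.12. In that list 9.52% were higher and 4.76% lower without overlap, against 6.96% and 5.85% of all genes.

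The calcium handling genes divided, with 20.7% higher and 13.8% lower without overlap, against 6.96% and 5.85% of all genes. Besides Casq1, 5 of 29 measured genes were non-overlapping and higher: Camk2g, a calmodulin-dependent kinase, Trdn and Asph, which encode the triadin and junctin of the calcium release complex, Jph1, a junctophilin of skeletal muscle, and Orai1, a store-operated channel. Camk2g read 759, 755 and 728 in the controls against 872, 931 and 914 in the labelled PlGF/RGS4 hearts, and Trdn 5021, 5267 and 4591 against 5515, 5638 and 5582. Non-overlapping and lower were 4 genes: Ryr2, the calcium release channel itself, Jph2, the junctophilin of heart, Stim1, the calcium sensor of the reticulum, and Itpr2, a receptor for inositol trisphosphate. Ryr2 read 8408, 7892 and 7694 against 6794, 7289 and 6632, a log2 change of -0.21 ± 0.054 (SE). For Jph2 the values were 1166, 1115 and 1260.3 against 1063, 873 and 984 (-0.28 ± 0.084 (SE)). All of these differences but that of Casq1 were under 1.3-fold, and their limma adjusted p ran from 0.232 for Camk2g to 0.573 for Itpr2.

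Genes of the intercalated disc, which joins heart muscle cells end to end, read slightly lower in several members. Lrrc10, a heart protein of the Z-line, read 3312, 2908 and 3726 in the controls against 2687, 2434 and 2454 in the labelled PlGF/RGS4 hearts (-0.39 ± 0.10 (SE)). The desmosomal genes Pkp2, Dsg2 and Dsp gave log2 changes of -0.23, -0.20 and -0.13, and Ctnna1, α-catenin, -0.14. All 5 were non-overlapping. Xirp2, an actin-binding protein of the disc, was non-overlapping on the other side, 3782, 3741 and 3195 against 4058, 4475 and 4210.1, as was Vcl at 0.058. In the list of 21 genes, 5 were lower without overlap (23.8% against 5.85% of all genes) and 2 higher (9.52% against 6.96%). The median was -0.02.

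In the sarcomere, Tpm1, the tropomyosin of heart muscle, read 12153, 12302 and 12424 against 10728, 10746 and 10799.6 (-0.19 ± 0.031 (SE), limma adjusted p = 0.235). Tpm2, the β-tropomyosin that adult heart makes little of, read 259.8, 396 and 222 against 547, 743 and 404 (0.95 ± 0.29 (SE)), so the pair stood on opposite sides without overlap. Myh7, the slow myosin heavy chain that rises in enlarged rodent hearts, read 815, 1038 and 741 against 653, 665 and 709, and Tnnt1, slow skeletal troponin T, 168, 165 and 233 against 140.2, 134 and 127. Both were non-overlapping and lower. Of 23 measured genes of the fetal and hypertrophic response, 6 were non-overlapping and lower (Nppa, Nppb, Myh7, Tnnt1, Fhl2 and Postn) and 2 higher (Tpm2 and Xirp2). These were 26.1% and 8.7%, against 5.85% and 6.96% of all genes. The list median of -0.065 was -0.036 under quantile normalization, -0.14 with only genes above the median level and between -0.14 (without labelled PlGF/RGS4 replicate 2) and -0.014 (without replicate 1 of the same group) with 1 array left out. The 24 adult sarcomere genes had a median of -0.012, with Nebl higher and Tpm1, Smyd1, Myoz2 and Myom1 lower without overlap. These were 4.17% and 16.7%, against 6.96% and 5.85% of all genes. The summed intensity of the 24 genes was 194837 to 197003 in the controls and 187106 to 193201 in the labelled PlGF/RGS4 hearts.

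**Figure D3:**
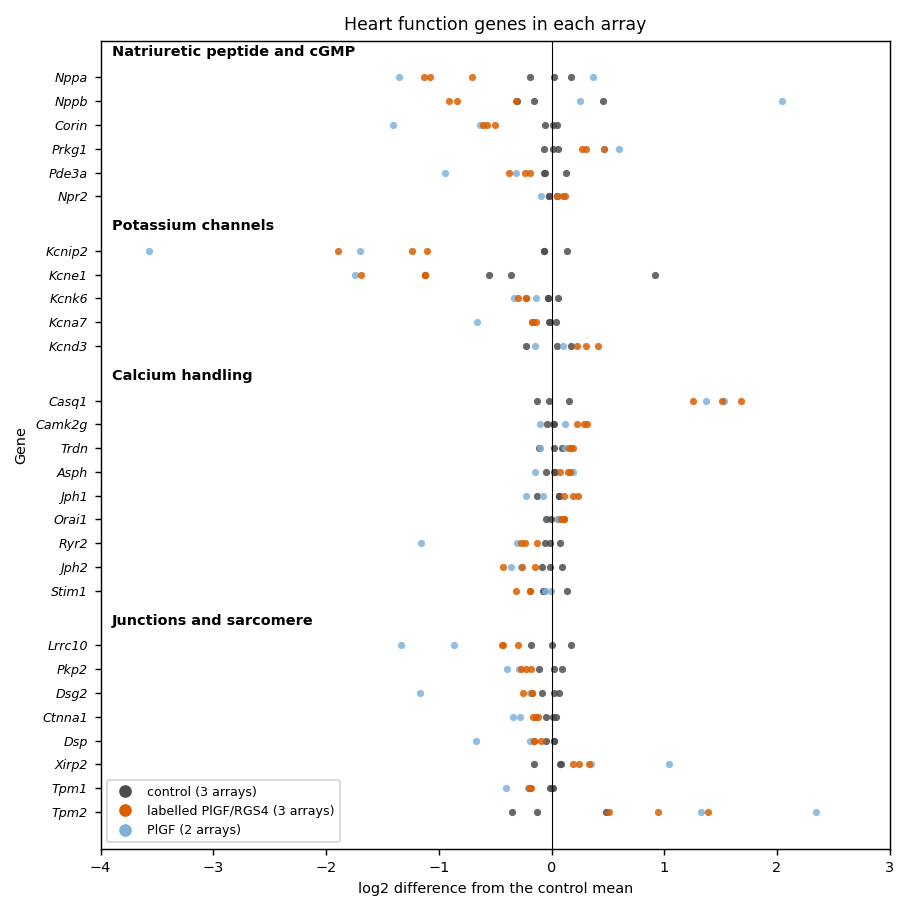
Difference of each array from the control mean, on the log2 scale, for natriuretic peptide, potassium channel, calcium, junction and sarcomere genes; grey points are controls, orange points labelled PlGF/RGS4 hearts and blue points PlGF hearts. Kcnip2 and Kcne1 reach farthest to the left and Casq1 farthest to the right among the orange points, while most other genes stay within 0.5 of the control mean.

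None of the vessel genes passed a limma adjusted p of 0.05. The share lower without overlap was 21.7% in the sprouting, 20% in the arterial and 18.2% in the capillary fatty acid handling list, against 5.85% of all genes. In the endothelial, venous, pericyte and VEGF lists it was 0 to 4.76%. The share higher was 7.69% in the endothelial and 11.1% in the venous list, against 6.96% of all genes, and 0 in the others. In a bulk sample, fewer cells of a type and less RNA per cell cannot be told apart. None of the 9 measured VEGF ligands and receptors was non-overlapping. Flt1, the receptor of PlGF, read 1472, 1458 and 1459.8 in the controls against 1351, 1488 and 1303 in the labelled PlGF/RGS4 hearts, and Kdr, the main VEGF receptor, 1284, 1545 and 1276 against 1365, 1259 and 1458, with 2206 and 1847 in the PlGF hearts. Vegfa read 2378, 2654 and 2961 against 2300.0, 2119.6 and 2654. The log2 changes of these 3 genes were -0.086 ± 0.055 (SE), -0.0051 ± 0.093 (SE) and -0.18 ± 0.11 (SE).

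Of 26 measured endothelial markers, Fli1, an ETS factor, read 552, 541 and 538 against 618, 634 and 619 (0.20 ± 0.033 (SE), limma adjusted p = 0.235). Cdh5, the cadherin of endothelial junctions, read 3336, 3314 and 3217 against 3369, 3482 and 3612, and Ptprb, the endothelial phosphatase, 1704, 1721 and 1698 against 1543, 1491 and 1617. Those 3 genes alone were non-overlapping, the first pair higher and Ptprb lower. Pecam1 read 1476, 1683 and 1708 against 1400.1, 1497 and 1431, with overlap. The list's median was -0.075, and its summed intensity was 27479 to 28566 in the controls and 26684 to 27596 in the labelled PlGF/RGS4 hearts, which overlap.

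Among the genes of sprouting vessels a few members read lower. Angpt1, the ligand that calms vessels through TIE2, read 467, 396 and 559 in the controls against 289, 356 and 293 in the labelled PlGF/RGS4 hearts (-0.59 ± 0.14 (SE), limma adjusted p = 0.338). The 3 genes of adrenomedullin reception, Ramp2, Ramp3 and Calcrl, gave -0.33, -0.18 and -0.14, and Nid2, a basement membrane protein, -0.15. These 5 of 23 genes (21.7%) were non-overlapping and lower and none was higher, and the list median was -0.087. That median was -0.028 without labelled PlGF/RGS4 replicate 2, -0.16 without control replicate 1 and -0.0015 on the 4 arrays with high Xist, and the medians of single arrays overlapped between the groups. In the arterial list of 15 genes, Hey1, Jag1 and Notch1 were non-overlapping and lower at -0.18, -0.11 and -0.10. Its median was -0.057, or -0.02 without labelled PlGF/RGS4 replicate 2, and its single-array medians did not overlap between the groups. Acta2, the actin of smooth muscle, read 3578, 2749 and 4122 against 2248, 1574 and 1936 (-0.85 ± 0.18 (SE)), the only non-overlapping gene of 21 pericyte and smooth muscle genes. The summed intensity of that list was 27866 to 28622 in the controls and 24842 to 26470 in the labelled PlGF/RGS4 hearts, a gap that includes Acta2 itself.

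Macrophage and other leukocyte genes read lower in 7 of 34 members without overlap (20.6% against 5.85% of all genes) and higher in none. Among them were the 4 genes of antigen presentation by class II molecules, H2-Ab1, H2-Aa and H2-Eb1 for the chains and Cd74 for the chaperone that accompanies them. H2-Ab1 read 787, 659 and 603 in the controls, 358, 259.5 and 469.8 in the labelled PlGF/RGS4 hearts and 6829.7 and 2694 in the PlGF hearts. H2-Aa read 829.5, 804 and 745 against 449.7, 297 and 581, and Cd74 1052, 1062 and 1052 against 622, 383 and 766. Every labelled PlGF/RGS4 array lay below every control for these genes, replicate 2 lowest, and both PlGF arrays were far above the controls for H2-Ab1. The log2 changes were -0.95 ± 0.22 (SE), -0.89 ± 0.23 (SE), -0.89 ± 0.24 (SE) and, for H2-Eb1, -0.76 ± 0.20 (SE), with limma adjusted p from 0.332 to 0.369.

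The promoters of H2-Aa and H2-Eb1 hold the same 8 letters at a like distance from the start of the gene. The windows are shown because the class II genes read lower together. No promoter sequence was at hand for H2-Ab1, and that of Cd74 was not looked at, so nothing is said of the motif in these genes. Capitals mark CTGATTGG, the Y box, an inverted CCAAT motif known from class II promoters; the sequences are those of RefSeq on GRCm38.p6, written along the gene's own strand.
H2-Aa, chr17:34287857-34287884, minus strand: agagaattttCTGATTGGttctggcgag
H2-Eb1, chr17:34305795-34305822, plus strand: tcctttgatgCTGATTGGctcccagcac
The motif begins 51 bases before the start of H2-Aa and 62 bases before that of H2-Eb1. Searched on both strands, it was present in 1346 of 32851 promoter windows of 300 bases, 4.10%, and such a match is a description of sequence only.

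Csf1r, the receptor that keeps macrophages alive, read 518, 550.0 and 530.3 in the controls against 446, 424 and 470.0 in the labelled PlGF/RGS4 hearts (-0.25 ± 0.05 (SE), limma adjusted p = 0.279). Cd163, a scavenger receptor of resident macrophages, read 272, 258 and 256 against 204, 225 and 177. Cd3g, a dim gene of T cells, completes the 7 at -0.23. The general markers Ptprc and Cd68 overlapped: Ptprc read 148, 157 and 162 against 128, 164 and 133, and Cd68 329, 337 and 261 against 331, 528 and 305, with labelled PlGF/RGS4 replicate 2 the highest for both. The summed intensity of the 34 leukocyte genes was 11090 to 11745 in the controls and 9310 to 10332 in the labelled PlGF/RGS4 hearts, without overlap. Its part in the other differences was not tested.

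Genes that take up and break down glucose and glycogen read lower in 7 of 30 members without overlap (23.3% against 5.85% of all genes). In 2 they read higher (6.67% against 6.96%). Pygb, the brain form of glycogen phosphorylase, read 5639.7, 5594 and 5411 in the controls against 4049, 3797 and 3954 in the labelled PlGF/RGS4 hearts, a log2 change of -0.50 ± 0.04 (SE) with a limma adjusted p of 0.0542. Slc2a12, the glucose transporter GLUT12, read 338, 334 and 304 against 233, 249 and 214 (-0.49 ± 0.071 (SE)). Hk2, the insulin-responsive hexokinase, read 1567, 1489 and 1642 against 1278, 1110.2 and 1278 (-0.36 ± 0.07 (SE)). Each of the 3 genes was apart by more than the range of either group. Pgam1 and Ppp1r3c gave -0.36 and -0.29, and the main muscle transporter Slc2a4 -0.058. Pygm, the muscle form of the phosphorylase, was non-overlapping on the other side at 0.065, as was Ldha at 0.10.

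Ketone and lactate use is served by Oxct1, which activates ketone bodies, and Slc16a1, the monocarboxylate transporter MCT1. Oxct1 read 4508, 4620.1 and 4108 in the controls against 3579, 3742 and 3671, and Slc16a1 4594, 4036 and 4447 against 3641, 3375 and 3710.1. Both were non-overlapping and lower (log2 changes -0.27 ± 0.054 (SE) and -0.28 ± 0.064 (SE)). Of the other 2 measured genes of ketone body metabolism, Acat1, a thiolase, was non-overlapping and higher at 0.07, and Bdh1, which oxidises a ketone body, read 1908, 1220.2 and 729 against 642, 926 and 322, with overlap. In that list of 4 genes, 50% were lower and 25% higher without overlap, against 5.85% and 6.96% of all genes.

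The 29 measured genes of fatty acid uptake and oxidation had a median of -0.015, with 4 non-overlapping and higher (Cpt2, Slc27a1, Acads and Fabp3) and 3 lower. These were 13.8% and 10.3%, against 6.96% and 5.85% of all genes. Cpt2, which brings fatty acids to oxidation inside mitochondria, read 3899, 3909 and 3944 against 4207, 4537 and 4540.2 (0.18 ± 0.042 (SE)), and the transporter Slc27a1 gave 0.18. Hadhb, Echs1 and Hadha of the oxidation cycle gave -0.11, -0.094 and -0.064. In lipid storage 5 of 24 genes were non-overlapping and lower (Dgat2, Gpam, Lpl, Mgll and Plin4) and 1, Fasn, higher, 20.8% and 4.17%. Dgat2, which makes triglyceride, read 5590.5, 4956 and 5298 against 4502, 4063 and 4564, and Lpl, lipoprotein lipase, 10758, 11544 and 11237 against 10081, 9976 and 10082. Gpihbp1, the capillary anchor of that lipase, read 1156, 1299 and 1363 against 1084, 1019 and 1028. All 3 were non-overlapping.

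Regulators of these fuel genes stood on both sides. Ppargc1a, the coactivator PGC-1α that drives mitochondrial genes, read 3031, 4519.7 and 5766 in the controls against 2796, 2460.0 and 2562 in the labelled PlGF/RGS4 hearts (-0.72 ± 0.22 (SE), limma adjusted p = 0.426). Its relative Ppargc1b read 602, 509.5 and 670.0 against 458, 420.3 and 488 (-0.38 ± 0.11 (SE)). Ppara, the fatty acid receptor of heart, read 1265, 1584 and 1771 against 1230.4, 1061 and 1168 (-0.41 ± 0.13 (SE)). The groups of these 3 genes were non-overlapping but near each other, and the controls were spread. Pparg gave -0.27, and Thra, a thyroid hormone receptor, 0.22 on the other side. Of 25 regulators, 4 stood lower without overlap (16% against 5.85% of all genes) and 6 higher (24% against 6.96%), and the median was -0.011.

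**Figure D4:**
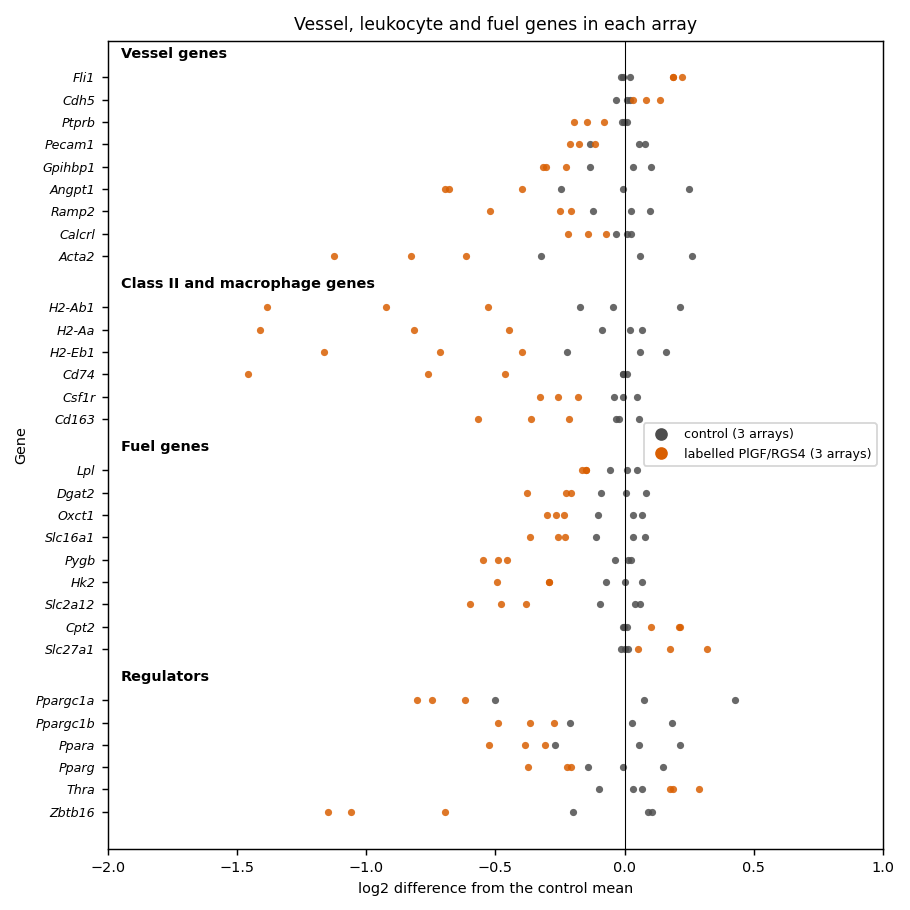
Difference of each array from the control mean, on the log2 scale, for vessel, class II and macrophage, fuel and regulator genes; grey points are the 3 controls and orange points the 3 labelled PlGF/RGS4 hearts. The class II genes, Zbtb16 and Acta2 reach farthest to the left, and the vessel markers Fli1, Cdh5, Ptprb and Pecam1 stay within about 0.2 of the control mean.

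Lists of mitochondrial and ribosomal genes had medians close to 0, and the medians of single arrays overlapped between groups for the citrate cycle and both ribosomal lists. Of 74 nuclear genes of the respiratory chain, 1 (Atp5g2) was non-overlapping and higher and 8 lower (10.8% against 5.85% of all genes). The median was -0.012, or -0.00012 under quantile normalization. Here the single-array medians did not overlap, at -0.0038 to 0.0032 in the controls and -0.0216 to -0.0097 in the labelled PlGF/RGS4 hearts. Ndufb10, a subunit of complex I, had the widest of these, 1122, 1072 and 1131 against 996, 996 and 993 (-0.16 ± 0.036 (SE)). Of 77 mitochondrial ribosomal proteins, 17 were non-overlapping and lower, 22.1% against 5.85% of all genes, and 5 higher (Mrps26, Mrpl54, Mrpl10, Mrpl33 and Mrpl16). Their median was -0.03, and among the lower ones were Mrps30 at -0.19 and Mrpl13 at -0.18. The 61 cytosolic ribosomal proteins had a median of 0.027, 7 non-overlapping and higher (11.5% against 6.96% of all genes) and 1, Rpl10l, lower. For the 30 genes of the citrate cycle 0 stood higher and 5 lower without overlap (16.7% against 5.85% of all genes, median -0.043). Slc25a13, the aspartate-glutamate carrier, gave -0.20, Idh2 -0.16, Pdhx -0.17, Pdha1 -0.085 and Ogdh -0.087.

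**Figure D5:**
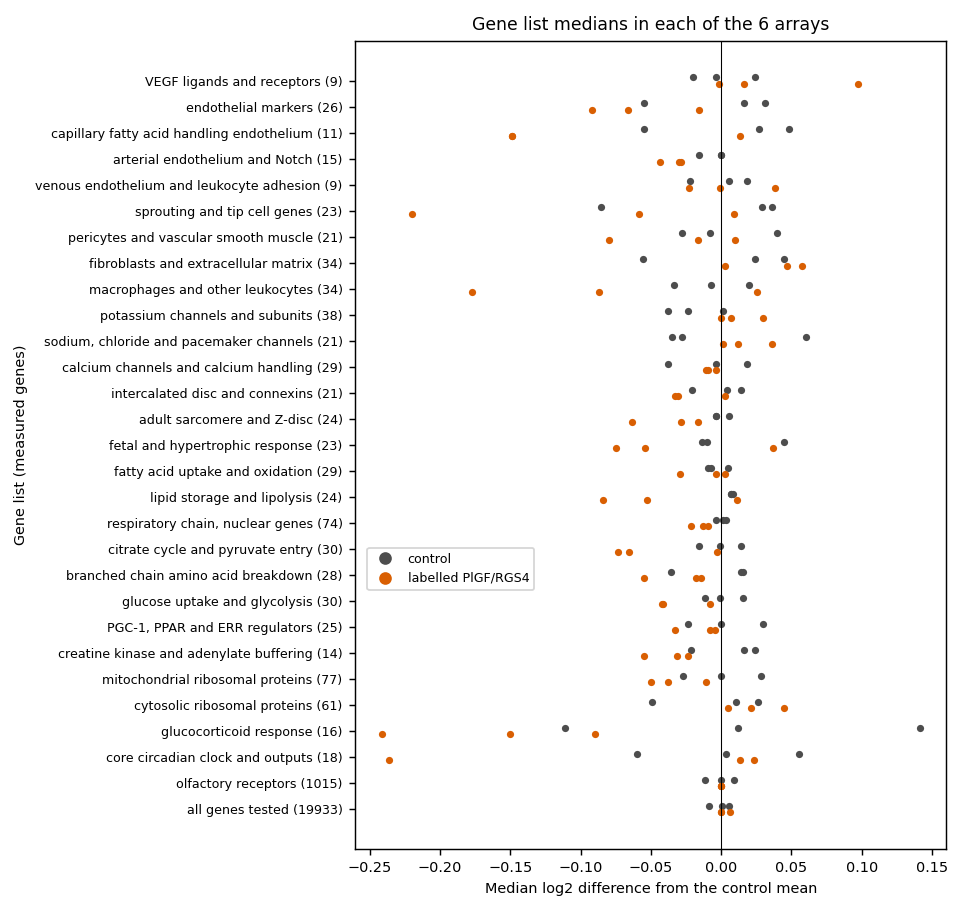
Median over each gene list of the log2 difference from the control mean, per array; grey points are the 3 controls, orange points the 3 labelled PlGF/RGS4 hearts, and the number of measured genes stands after each name. Orange points lie more than 0.1 below the control mean in 5 of the 29 lists drawn, for 1 or 2 of the 3 arrays in each, and within 0.1 of it in the other lists drawn.

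With 1 array left out, 26 of all 51 list medians changed sign in at least 1 case, and for 43 lists the medians of single arrays overlapped between the groups. They did not for 8 lists: the study's candidates, arterial, nitric oxide, adult sarcomere, ketone, respiratory chain, creatine kinase and reference genes. Of these only the reference genes stood higher, 4 of 12 without overlap (33.3% against 6.96% of all genes) and 0 lower. Their median was 0.021, or 0.050 under quantile normalization. Among the regulators of G proteins, to which Rgs4 belongs, 1 of 25 genes was non-overlapping and higher and 3 (Rgs6, Rgs3 and Rgs1) lower. These were 4% and 12%, against 6.96% and 5.85% of all genes. Rgs16, another regulator of Gαi and Gαq, read 109, 108 and 118 against 131, 124 and 137 (0.22 ± 0.054 (SE)), and Rgs6, which tempers the vagal slowing of the heart, 434, 377 and 441 against 342, 306 and 372 (-0.30 ± 0.091 (SE)). In cAMP signalling Pde4a (0.24) and the anchor Akap1 (0.19) were non-overlapping and higher, and Pde3a and Akap7 lower, of 24 genes. That was 8.33% each way, against 6.96% higher and 5.85% lower over all genes.

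Genes of amino acid supply under the factor ATF4 read higher in several members. Asns, asparagine synthetase, read 229, 235 and 215 in the controls against 273, 293 and 252 in the labelled PlGF/RGS4 hearts, and Slc7a5, an amino acid transporter, 268, 263 and 296 against 325, 356 and 307. Mthfd2, a mitochondrial folate enzyme, gave 0.53 ± 0.18 (SE) and Atf5 0.15 ± 0.039 (SE). Sesn1, a sestrin that restrains mTORC1, read 2685, 3033 and 2982 against 2353, 2210.4 and 2172 (-0.37 ± 0.06 (SE)). In the list of mTORC1 brakes and ATF4 targets, 5 of 25 genes were non-overlapping and higher (with Tsc2 at 0.033) and 2 lower (with Fgf21 at -0.13). These were 20% and 8%, against 6.96% and 5.85% of all genes, and the median was -0.014.

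Zbtb16, the zinc finger factor PLZF, a target of glucocorticoids, read 3298, 4028 and 4076 in the controls, 2334, 1814 and 1708 in the labelled PlGF/RGS4 hearts and 895 and 2088 in the PlGF hearts (-0.97 ± 0.14 (SE), limma adjusted p = 0.232). The 16 glucocorticoid response genes had the lowest median of the lists with over 5 genes, -0.24, but only Zbtb16 and Map3k6 were non-overlapping. Both were lower, 12.5% against 5.85% of all genes. The median ran from -0.35 (without labelled PlGF/RGS4 replicate 1) to -0.15 (without control replicate 3) with 1 array left out. Fkbp5, a feedback gene of that receptor, read 436, 610.2 and 781 against 480.3, 528 and 273, and Mt2, a metallothionein, 2639, 6160.2 and 6332 against 2658, 5869 and 1935, with wide overlap in both. In the clock list Cry1 (-0.30) and Usp2 (-0.20) were non-overlapping and lower, of 18 genes (11.1% against 5.85% of all genes), and 0 higher. Ciart, an output of the clock, ranged from 557 to 1057 within the controls.

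The study named 9 genes as candidate targets of the microRNA miR-182. A microRNA pairs with its targets through its seed, bases 2 to 8, and miR-182 is made from 1 cluster together with miR-96 and miR-183. The paper first took transcripts that were lower in PlGF but not in PlGF/RGS4 hearts on its arrays. It then matched them to a database of microRNA targets, which gave the 9 genes. The mature sequence of miR-182 is shown for that reason, and its cluster partners, which had no part in that choice, are shown for comparison of the seeds. They are from RefSeq on GRCm38.p6, minus strand, with the seed in capitals.
mmu-miR-182-5p, chr6:30165962-30165986: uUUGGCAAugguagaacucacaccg
mmu-miR-96-5p, chr6:30169506-30169528: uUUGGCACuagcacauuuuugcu
mmu-miR-183-5p, chr6:30169711-30169732: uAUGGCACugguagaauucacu
The probe set named for Mir182 read 12.9 to 17.9 on the 6 arrays, and only 4.89% of genes were dimmer. The paper measured miR-182 apart from these mRNA arrays, on miRNA arrays, by qPCR and by in situ hybridization. The reading here is therefore not taken as a level of the mature microRNA.

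Of the 9 candidates, Foxo3, a factor that promotes atrophy genes, read 899.5, 938 and 836 in the controls against 734, 679 and 706 in the labelled PlGF/RGS4 hearts (-0.33 ± 0.056 (SE), limma adjusted p = 0.235). Agtpbp1, a carboxypeptidase that trims tubulin, read 2902, 3138 and 3334 against 2896, 2810.5 and 2811, and Akap7, an anchor of protein kinase A, 751, 716 and 732 against 694, 647 and 706. These 3 were non-overlapping and lower (33.3% against 5.85% of all genes), the last pair by narrow gaps. The other 6 overlapped: Bcat2, the mitochondrial enzyme that starts the breakdown of branched chain amino acids, read 1688, 1686 and 1623 against 1534, 1851 and 1618. Adcy6, the adenylyl cyclase of heart, read 1692, 1779.8 and 1787 against 1708, 1702 and 1689.9. Mccc1, Pink1, Slc25a42 and Pcx gave log2 changes of -0.073, -0.033, 0.049 and 0.083. The choice of these 9 genes used arrays of this series, the labelled PlGF/RGS4 arrays included, so these values are no independent evidence of a direction. Apart from the arrays, the paper tested Bcat2, Foxo3 and Adcy6 by qPCR, with anti-miR-182 treatment and with a miR-182 mimic.

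The hearts labelled PlGF/RGS4 were also set against the PlGF hearts. In a fit of all 8 arrays, 17 genes were higher in the labelled PlGF/RGS4 hearts than in the PlGF hearts (0.0853% of 19933) and 218 lower (1.09%), at a limma adjusted p under 0.05. Leukocyte genes gave 15 of those 218 and genes of the interferon response 16, among 34 and 24 measured; 0 members of either list were higher. H2-Ab1 stood -3.60 ± 0.39 (SE) from the PlGF hearts on the log2 scale (limma adjusted p = 0.0143) and Cxcl9, an interferon-induced chemokine, -3.90 ± 0.29 (SE) (limma adjusted p = 0.00367). For the 30 leading genes above the limma adjusted p of this contrast ran from 0.0786 to 0.94. For Slc17a7 the difference from the PlGF hearts was -0.15 ± 0.17 (SE) and for Casq1 0.035 ± 0.14 (SE). The count of 235 depended on single arrays: it was between 11 and 26 when any 1 control or any 1 labelled PlGF/RGS4 array was left out, 273 without PlGF replicate 1 and 5590 without PlGF replicate 2. The comparisons of both transgenic groups with the controls share the same 3 control arrays, and no overlap between them is given.

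For some genes, chosen after their values were seen, the average difference came mostly from 1 array. Lcn2, a protein of injury and inflammation, read 237, 298 and 257 in the controls against 226, 4019 and 228 in the labelled PlGF/RGS4 hearts, a log2 change of 1.17 ± 1.11 (SE) with replicate 2 alone above the controls. Aldh1a2, an epicardial enzyme that makes retinoic acid, read 134, 106 and 122 against 150.1, 361 and 159.5, and Tnc, tenascin C of injured matrix, 43.2, 39.2 and 46.6 against 56.2, 169 and 50.2. Both were non-overlapping, with the same replicate far above the other 2. On that array 26 genes stood at least 2-fold above both other arrays of the group, against 0 to 7 genes on each of the other 5 arrays. Among the 26 were the Y chromosome genes Eif2s3y, Uty and Kdm5d, on the array of this group that reads as male.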

How the data were processed

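Total RNA of 6 left ventricles was read on Affymetrix Mouse Gene 1.0 ST arrays. The authors deposited linear intensities per probe set, made with MAS5 and global scaling per the labels and the methods. The step that made values repeat exactly between arrays is not stated there, and its origin was not tested. The genome build behind the array is not given in the sources used here. No depth applies to arrays, and 3 per group limit the precision. The labels call the replicates biological, 1 array per heart.

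From the 28440 probe sets, those with 1 gene symbol (21780) were kept, 1618 with several and 5042 with none were left out, and the brightest probe set stood for each of 19933 genes. Symbols came from the platform annotation, 19851 were matched in RefSeq, and 0 needed renaming. Values were log2(intensity + 1), fitted with limma 3.58.1 in R 4.3.3 (lmFit, eBayes) on these 6 arrays, and p-values were adjusted by Benjamini-Hochberg across the 19933 genes (threshold 0.05). SE is the moderated standard error from limma. The 6-array fit had 4 residual degrees of freedom and a prior of 2.23. The fits were tested on simulated data. Lists were described by counts and medians, without a test over the list. Some genes stand in more than 1 list: the 2154 measured list entries came from 2067 genes, so counts of different lists are not independent. The leading genes were 15 per direction by adjusted p and non-overlap, filled by unadjusted p among genes of at least 1.3-fold, without overlap and above the median level; 56 genes were eligible on the higher side and 82 on the lower. Predicted genes were left out of the naming. The study's candidates, the transgenes and list members with the smallest p or without overlap are also named; any other gene was chosen after its values were seen. The comparison, the lists and the tests were chosen with earlier results of these data known. Alternatives covered scaling, pseudocount, filter, probe set choice, prior, array weights, blocks, the methods' t-test and each array left out.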

Additional observations from a re-analysis of the deposited data

Results flagged for a closer look

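One probe set without a gene symbol, 10362208, lay outside the genes tested and read far higher in the labelled PlGF/RGS4 hearts. Its intensity was 68.2, 48.2 and 46.1 in the controls against 181.1, 139.1 and 154.6 in the labelled PlGF/RGS4 hearts, a log2 change of 1.54 ± 0.17 (SE). In a limma fit over all probe sets its adjusted p was 0.15, and no probe set passed 0.05. Among probe sets without a single symbol it was the only one at least 2-fold higher without overlap, and 2 were at least 2-fold lower without overlap. Of these, 10407337 read 75.3, 113.4 and 58.6 in the controls against 35.5, 38.2 and 34.8 in the labelled PlGF/RGS4 hearts, a log2 change of -1.11 ± 0.23 (SE), and 10602385 read 664.4, 595.2 and 572.5 against 325.5, 401 and 205.9, a log2 change of -1.02 ± 0.24 (SE).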

How the results depend on the processing

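The count of genes at an adjusted p under 0.05 was 0 in the fit as reported (unadjusted p under 0.05: 952 genes higher, 822 genes lower). It was 9 with arrays centred on their medians, 9 with only genes above the median level, 11 with a trend and robust prior, 6 with array weights and 3 with all 8 arrays in one fit (Slc17a7, Casq1 and Nova1). It was 0 under quantile normalization, a pseudocount of 16, the mean of all probe sets, the methods' t-test, an ANOVA spread over the 8 arrays, the replicate block, a block for the Xist level and each array left out. Among 2 alternatives chosen after seeing the data, it was 10 with only genes that held no exact repeat and 0 with only the 4 arrays with high Xist. The cause of these differences was not tested.

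At an unadjusted p under 0.05, the 8-array fit gave 547 higher and 454 lower, and the ANOVA spread 497 and 377. Genes without overlap numbered 3675 higher and 2834 lower on the 4 arrays with high Xist, and 2059 to 2671 higher and 1776 to 2315 lower with 1 array left out, where fewer arrays make overlap less likely by construction. The 235 genes that differed between the labelled PlGF/RGS4 and the PlGF hearts became 11 to 5590 with 1 array left out.

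Whether replicate numbers pair the samples cannot be told from these arrays. Deviations of same-numbered hearts correlated at 0.076, 0.296 and 0.101, and those of differently numbered hearts between -0.236 and 0.158. Control replicate 3 correlated best with labelled PlGF/RGS4 replicate 1. The highest value, 0.296, joins the replicate 2 arrays, which are also the arrays with low Xist, and the part of sex in it was not tested. With the replicate block 0 genes were called, and 887 genes were higher and 798 genes lower before adjustment. All 30 leading genes kept their direction under every alternative run for them. They were chosen for arrays that do not overlap, so leaving out arrays could not have turned their direction. With 1 array left out the limma adjusted p of Slc17a7 was at least 0.165. The median of the potassium channel, sodium and chloride channel, fatty acid oxidation, venous, hypoxia, nerve and olfactory receptor lists changed sign under another scaling. With 1 array left out in turn, the median changed sign in 26 of 51 lists, among them those of VEGF ligands and receptors, calcium handling, the intercalated disc, G protein regulators, the PGC-1 and PPAR regulators, the clock and the mTORC1 and ATF4 genes. Of 1019 list medians under an alternative, 88 moved by more than the spread between replicates, and the cause was not tested. Dim genes and 3 hearts per group limit what could be detected.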
